A study of Mus musculus with 121 samples.

Results

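The genes described here are 38 mouse genes of glucose catabolism, chosen by name from the steps that carry glucose to lactate, through the pentose phosphate branch, or into the mitochondria as acetyl groups. They are named members below. All 38 reached 1 CPM (1 count in every 1000000 counts of a library) or more in at least 3 libraries, and they are 38 of the 13292 genes that passed this limit and of the 31053 genes listed. The cells were immortalized fibroblasts from the ear of a Per2::Luc mouse, which carries a PER2::LUCsv knockin, so that luciferase light reports the clock protein PER2. They form 1 cell line at 1 passage, grown as a confluent layer in microfluidic chambers, and their genotype was shared by all groups.

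Media rich (H) or poor (L) in glucose and insulin were exchanged every 12 h for 3 days, and all media held a low share of serum, a B27 supplement without insulin, and luciferin. In HL the rich medium came first and the poor medium second in each cycle, in LH the order was opposite, and in HH the rich medium was renewed at each exchange. After 12 h without further exchange, RNA was collected every 4 h over 6 collections. HL was sequenced in 21 libraries, LH in 22 and HH in 19, which leaves 2 to 4 libraries to each treatment and collection. Time is given in hours after the first collection, from the collection number in the titles at steps of 4 h. The clock hour in the titles does not advance in such steps and was not used. It is the same for the second and the fifth collection, and in LH it differs from that of HL and HH at the third and the fourth. The times, peaks and rhythms below rest on the order of collections. The study's methods state that its experiments were biologically independent, but nothing in the labels ties the libraries of a group to separate cultures, so p-values measure the spread between these libraries, which may be technical in part.

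Glycolysis splits 1 glucose into pyruvate in the cytosol. Hexokinase (Hk1, Hk2) traps glucose as glucose 6-phosphate, phosphofructokinase (Pfkl, Pfkm, Pfkp) sets the pace with the help of the regulator made by Pfkfb3, aldolase (Aldoa, Aldoc) cuts the sugar, and pyruvate kinase (Pkm) makes pyruvate. Lactate dehydrogenase (Ldha, Ldhb) turns pyruvate into lactate, and the monocarboxylate transporters Slc16a1 and Slc16a3 carry lactate across the membrane. Alternatively, pyruvate enters the mitochondria through Mpc1 and Mpc2, and the pyruvate dehydrogenase complex (Pdha1, Pdhb, Dlat, Dld) converts it to acetyl-CoA. The kinases Pdk1 to Pdk4 switch that complex off, and Pdk4 is well known as a gene raised in fasting and lowered by insulin. The pentose phosphate genes (G6pdx, Pgls, Pgd, Rpia, Rpe, Tkt, Taldo1) make NADPH and ribose.

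A pair of limits touches all that follows. First, the library of the second collection of LH, replicate 2, held 104912 counts, so that 1 count there is 9.53 CPM. All others held 2136819 to 11619095 counts, and the median of all 62 libraries was 5825881. Levels below are given over the 61 deeper libraries where this is stated. Second, each set of counts has a library number, and the read summary of the study gives that number another name for 35 of the 62 libraries and does not list it for 5. These 40 libraries are all of LH and all of HL beyond the first collection, while HH is the same in both. Values are given by the titles of the deposited samples unless "by number" is written, and the 57 listed libraries were then used. The fibroblast markers were high in all 61 deeper libraries, with a summed level of 10 genes of 9861 to 38620 CPM (median 29557) and Col1a2 at 5416 to 22020 CPM. Of the markers of other cells, the summed level was 0.178 to 4.57 CPM for 4 epithelium genes, 7.22 to 25.7 CPM for 4 leukocyte genes and 0 to 3.28 CPM for 3 skeletal muscle genes. It was 0 to 10.8 CPM for 2 adipocyte genes and 0 to 3.01 CPM for 2 cartilage genes. Lyz2 (3.32 to 18.3 CPM) and Cd68 (0.917 to 6.42 CPM) were counted in each of the 61 deeper libraries, and Kdr, listed for endothelium, was at 20.3 to 269.7 CPM while Pecam1 and Cdh5 had a median of 0 CPM. A smaller share of a cell state and less RNA per cell cannot be told apart in such bulk samples.

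The members together took 0.265% to 0.572% of the counts of a library (median 0.377%). Reads came from the 3′ end of transcripts, so that a level in CPM does not grow with gene length and was compared between genes without division by length. Over the 61 libraries, 8 members had a median above 100 CPM, 22 lay between 10 and 100 CPM and 8 below 10 CPM. Pkm (1358 CPM) and Aldoa (493 CPM) had the highest medians, followed by the lactonase gene Pgls (299.7 CPM), Ldha (203 CPM), the transketolase gene Tkt (202 CPM), Pgd (116 CPM), Hk1 (114 CPM) and Gpi1 (104 CPM).

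At the entry of glucose, the transporter gene Slc2a3 was close to the detection limit, with a median of 0.182 CPM and at least 1 CPM in 6 of 62 libraries. Hk1 had a median of 114 CPM against 9.67 CPM for Hk2. Among the 3 phosphofructokinase genes the liver form Pfkl (43.2 CPM) and the muscle form Pfkm (39.2 CPM) were near each other, and the platelet form Pfkp was lower (10.5 CPM) with a wider range, 1.76 to 30.0 CPM. Pfkfb3, the regulator, had 36.6 to 129 CPM (median 65.9). Aldoa was far above its relative Aldoc, which had a median of 0.278 CPM and at least 1 CPM in 13 libraries.

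In lower glycolysis, the levels of single genes fell far apart although the enzymes work in 1 chain. Pkm ranged from 801 to 2592 CPM, Gapdh from 6.605 to 76.3 CPM (median 26.9) and Pgk1, the gene of phosphoglycerate kinase, from 0.282 to 10.2 CPM (median 2.85). For Gapdh, 133 other annotated genes had a stretch of at least 100 bases that was 95% or more identical to the last 300 bases of one of its transcripts, as processed copies do. Reads that align to 2 places were not counted, so the level of Gapdh is uncertain. The same search found 6 such genes for Ldha, 5 for Eno1, 3 for Mpc1, 2 each for Aldoa, Pkm and Tpi1 and 1 each for Gpi1, Ldhb, Pfkp, Rpe and Pdha1. For Pfkp, Rpe and Pdha1 the matching genes were Pitrm1, Kansl1l and Map3k15, which lie over the member on the opposite strand, and the strand setting of the counting is not given in the sources used here. Hk1, Hk2, Gpi1, Pfkm, Pfkfb3, Aldoa, Tpi1, Gapdh, G6pdx, Mpc1 and Pdk2 also overlap annotated genes of the opposite strand, so that reads of the pair may not be told apart. Slc2a3, Pfkm, Pfkfb3, Pkm, Slc16a1, Pgls, Tkt and Mpc2 overlap annotated genes of their own strand. There reads of a shared stretch may not be told apart whatever the strand setting. The other 26 members had no like stretch in the annotated transcripts searched, Pgk1 and Pgam1 among them. Copies outside the annotation were not searched, so this does not show that the low level of Pgk1 is free of such loss.

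Of the lactate genes, Ldha (113 to 468 CPM) was above Ldhb (median 17.2 CPM), and the importer and exporter Slc16a1 (median 26.6 CPM) was above Slc16a3 (0.471 CPM, at least 1 CPM in 5 libraries). In the pentose phosphate branch, G6pdx, which makes the first and rate-limiting enzyme, had a median of 41.9 CPM, and Rpe had the lowest (9.69 CPM). The subunits of the pyruvate dehydrogenase complex were of like size, with medians of 86.4 CPM for Pdha1, 47.2 CPM for Pdhb, 42.0 CPM for Dlat and 34.4 CPM for Dld. Among the kinases, Pdk2 (32.5 CPM) and Pdk3 (26.3 CPM) were above Pdk4 (7.39 CPM) and Pdk1 (4.31 CPM). Pdk4 also had the widest range, as a ratio of highest to lowest library, of any member with a median above 5 CPM, 0.315 to 18.3 CPM.

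**Figure D1:**
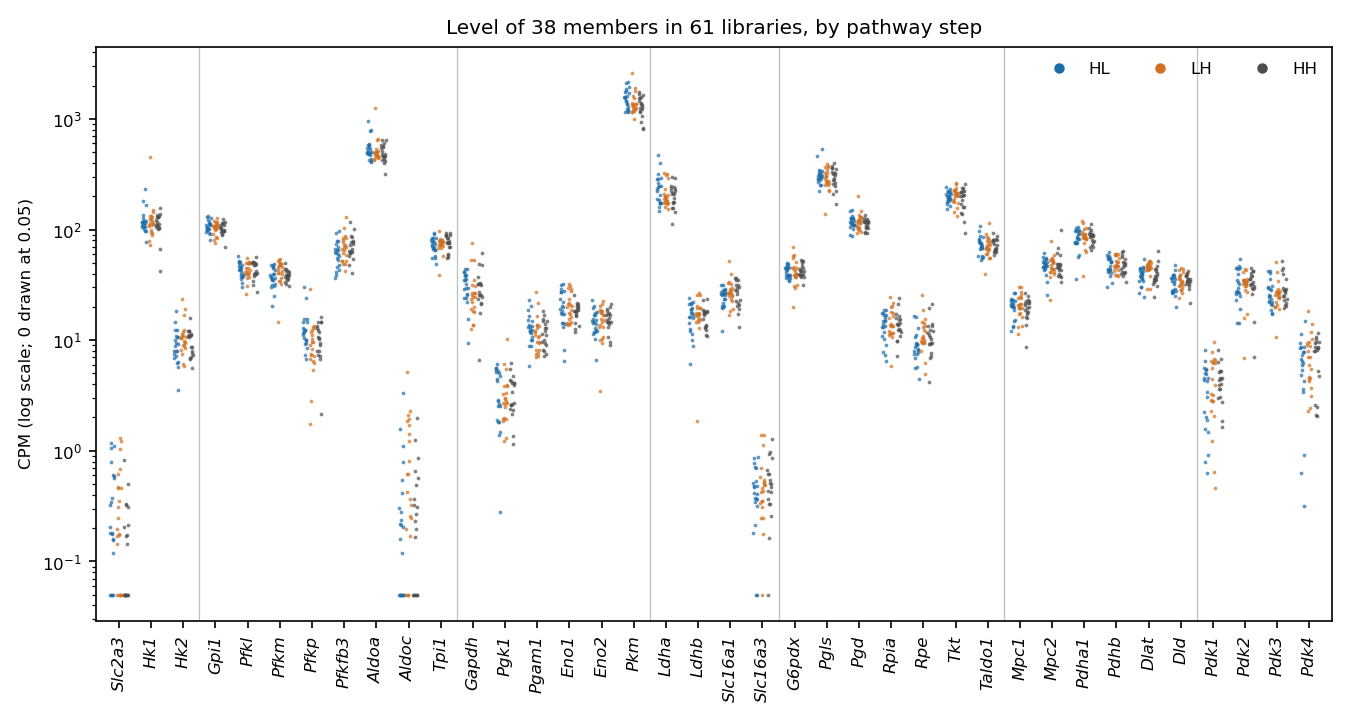
Level in CPM (log scale) of each of the 38 members in 61 libraries, with HL, LH and HH side by side and members in the order of the pathway. Each point is 1 library, grey lines part the pathway steps, and the 3 treatments overlap for every member while Pkm and Aldoa stand at the top.

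The first comparison asked whether the order of rich and poor medium shifted the mean level over the time course. No member passed the adjusted threshold of 0.05 in any of the 3 comparisons of treatments, in edgeR or in DESeq2, and 0% of the 13292 genes passed it in edgeR. Without adjustment, 5 of 38 members had p under 0.05 for LH against HL (5.69% of all genes), 4 for HH against HL (7.41% of all genes) and 3 for LH against HH (5.23% of all genes). The median log2 difference of the members was -0.01, -0.05 and 0.06 in these comparisons, against 0.00 for all genes in each. HL libraries serve in both of the first 2 comparisons, which are therefore not independent.

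Pkm had the smallest p of HH against HL. Its level was 1149 to 2169 CPM in HL (median 1536), 997 to 2592 CPM in LH (median 1326) and 801 to 1735 CPM in HH (median 1335). The ranges overlap, HH being lower than HL by a log2 difference of -0.32 (SE 0.11, edgeR adjusted p = 0.498). Ldha, the next enzyme in the chain, had 146 to 468 CPM in HL (median 231.97), 152 to 323 CPM in LH (median 190) and 113 to 299 CPM in HH (median 211), with a log2 difference of -0.31 (SE 0.13, edgeR adjusted p = 0.628) for HH against HL. By number these differences were smaller, -0.14 for Pkm and -0.09 for Ldha. Slc2a3 was the other member among the 3 smallest, with a log2 difference of -1.26 (SE 0.54, edgeR adjusted p = 0.628) at levels near 0.

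Dlat, the gene of the acetyltransferase subunit of pyruvate dehydrogenase, had the smallest p in both comparisons that involve LH. Its level was 24.8 to 54.2 CPM in HL (median 38.8), 28.9 to 51.8 CPM in LH (median 45.7) and 24.8 to 63.7 CPM in HH (median 37.5). LH exceeded HL by a log2 difference of 0.20 (SE 0.08, edgeR adjusted p = 0.748) and HH by 0.22 (SE 0.08, edgeR adjusted p = 0.883). By number, the value against HL was -0.08 and that against HH 0.04. Pgls (log2 difference -0.19, edgeR adjusted p = 0.819) and Rpe (0.33, edgeR adjusted p = 0.826) came next for LH against HL and took the opposite sign by number, 0.10 and -0.30. Slc2a3 (1.11) and Aldoc (1.10), both with few counts, came next for LH against HH (edgeR adjusted p = 0.883 for each).

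The other named steps lay close together in the treatments. Hk2 had a median of 8.95 CPM in HL, 10.4 CPM in LH and 10.7 CPM in HH. Pfkfb3 had 60.7, 68.6 and 66.7 CPM in the same order, and Gapdh 32.3, 24.5 and 27.5 CPM. G6pdx was at 41.7, 40.0 and 42.2 CPM, and Slc16a3 at 0.417, 0.461 and 0.496 CPM. The 95% interval of the log2 difference of G6pdx was -0.16 to 0.14 for LH against HL. For the kinases that switch off pyruvate dehydrogenase, Pdk1 had 4.313, 3.898 and 4.403 CPM and Pdk4 6.545, 6.990 and 8.439 CPM. The log2 difference of Pdk4 was 0.18 for LH against HL (95% interval -0.31 to 0.67) and 0.22 for HH against HL (-0.28 to 0.73), and that of Pgk1 was -0.10 (-0.54 to 0.34) and -0.14 (-0.59 to 0.31).

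The size of these intervals holds for the libraries as titled, and some values by number fall outside them, as those of Dlat and Rpe for LH against HL do. The interval lay within 0.5 log2 units of no change for 28 members in LH against HL, for 27 in HH against HL and for 31 in LH against HH. It lay within 1 log2 unit for 35, 36 and 35 members, and the wider ones belonged to Slc2a3, Slc16a3 and, in the comparisons with LH, Aldoc, which have few counts. In simulated data with these libraries, 200 of 200 genes changed by 2-fold between LH and HL were found. They were drawn from genes above a CPM limit, so members with few counts are not covered. The direction is less certain than the size: 14, 25 and 24 of 38 members had the same sign of the difference by titles and by number for LH against HL, HH against HL and LH against HH.

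**Figure D2:**
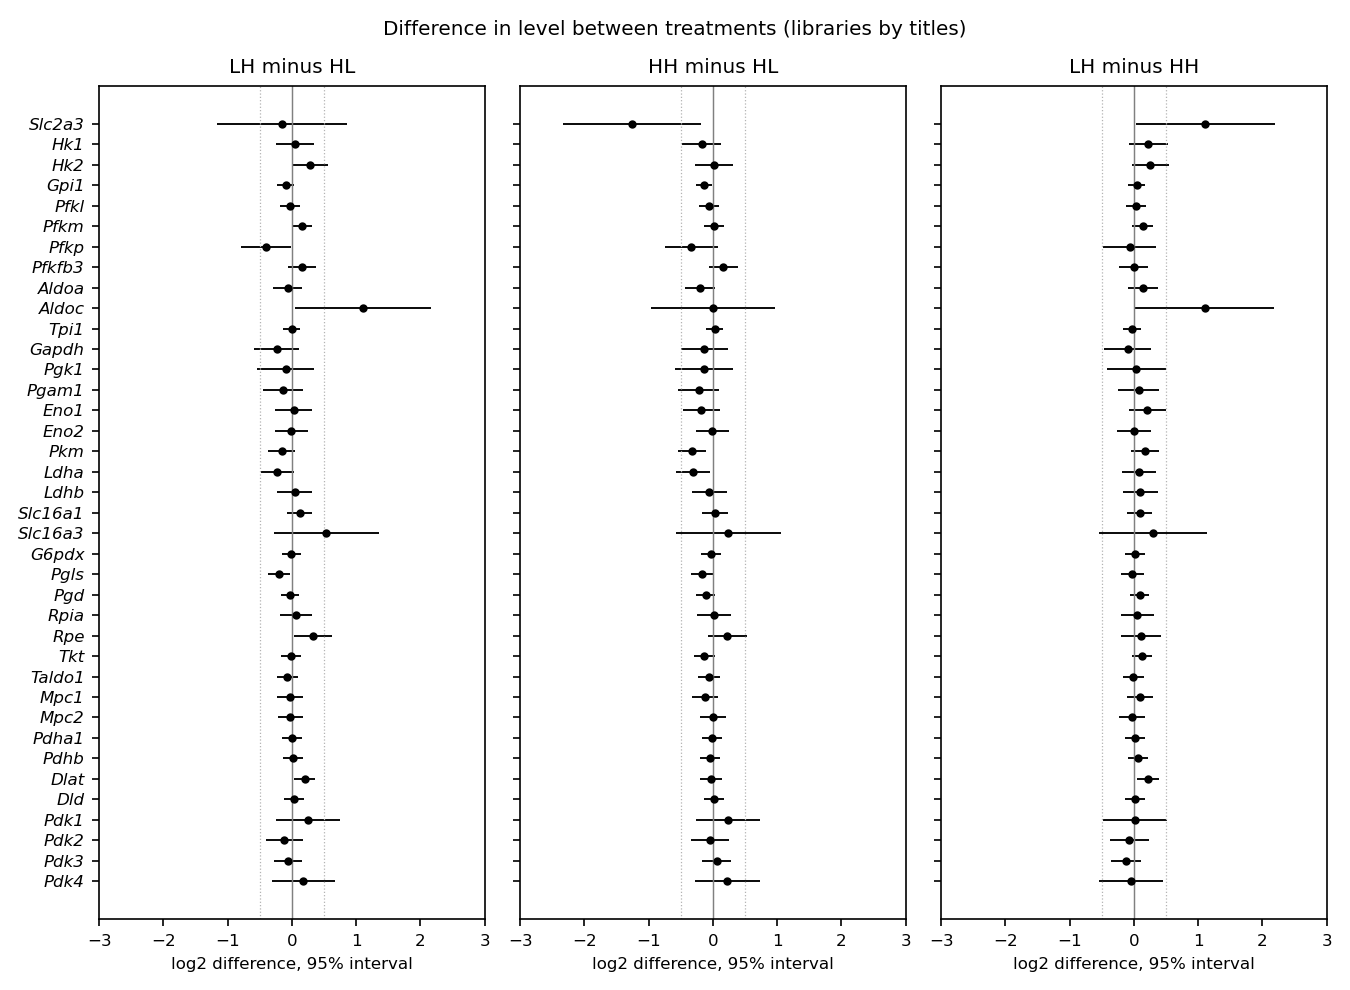
Log2 difference in level between treatments for each member, with the 95% interval from edgeR, libraries by titles. Dotted lines mark 0.5 log2 units either way, and of the 38 intervals 28, 27 and 31 lie within them in LH minus HL, HH minus HL and LH minus HH.

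Genes of the same pathways outside the 38 gave a like picture. Of 41 such genes 30 were tested, and none passed in levels in edgeR, with 1, 2 and 1 at an unadjusted p under 0.05 in the 3 comparisons. Slc2a1, the main glucose transporter of fibroblasts, had a median of 21.5 CPM, and Bsg, the partner of the lactate transporters, 462 CPM. None of 15 targets of hypoxia-inducible factor passed in levels, with 1, 1 and 0 at an unadjusted p under 0.05. The same was true of Txnip and Arrdc4, which rise when glucose enters cells, with 1, 1 and 0. Txnip ranged from 8.77 to 139.9 CPM with a median of 49.0 CPM.

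The second comparison asked whether members changed over the collections of a treatment. In HL none of the 38 passed an F test of equal means over the 6 collections in edgeR, against 0.301% of all genes. An unadjusted p under 0.05 was found for 2 members there (8.98% of all genes). In HH none passed in edgeR, against 0.293% of all genes, with 5 at an unadjusted p under 0.05 (8.61% of all genes). DESeq2 called 1 member there, Pdk3. The share of all genes that DESeq2 called is not given here, and calls over all genes in HH ran from 4 to 498 among the alternatives. In LH 2 of 38 passed, against 2.93% of all genes, with 6 at an unadjusted p under 0.05 (16.9% of all genes). JTK_CYCLE, a rank test for a 24 h rhythm, at P under 0.01 found 0 members in HL (0.82% of all genes), 0 in LH (1.51%) and 1 in HH (1.99%).

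Pdk3, the gene of a pyruvate dehydrogenase kinase, had the lowest p in both HL and HH. In HH it was at 51.5, 43.2, 44.7 and 39.5 CPM in the 4 libraries of the first collection, and at 19.5 to 35.5 CPM in the other 15 libraries. The first collection did not overlap with the later ones, and the share of all genes of which this holds is not given here. The p of the F test was 0.00058 and edgeR's adjusted p 0.102 by titles, and 0.0497 by number, where the HH libraries are the same but the spread is estimated with other libraries of HL and LH. Without LH replicate 1 or 4 by titles it was 0.0325 and 0.0334 (edgeR adjusted p). In HL, Pdk3 was highest at 8 h, with 41.9, 36.0 and 40.4 CPM, and also high at 0 h with 30.2, 42.4 and 29.9 CPM, against 17.1 to 30.7 CPM at the other 4 collections (edgeR adjusted p = 0.218). In LH the 3 libraries of the second collection spread from 10.6 to 50.5 CPM.

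Tpi1, the gene of triosephosphate isomerase, was the member that JTK_CYCLE called in HH (exact P = 0.0081, peak at 0 h). Its level was 88.8, 87.0, 92.8 and 88.9 CPM at 0 h and 58.9 and 56.8 CPM in the 2 libraries at 12 h. At 20 h it was again at 69.4 to 93.6 CPM. The 3 libraries at 4 h spread from 55.2 to 83.0 CPM, so that the low level was not particular to 12 h. The edgeR adjusted p of the F test was 0.359, and leaving out HH replicate 1, 2 or 3 ended the JTK call.

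Both members called over time in LH had their highest mean in its second collection, which has 3 libraries (replicates 1, 2 and 4). Hk1 was there at 450.0, 114.4 and 72.1 CPM and at 78.4 to 150.6 CPM in the other 19 libraries of LH (edgeR adjusted p = 0.0448). The high value thus belongs to 1 library, replicate 1, which by number is replicate 4 of the sixth collection of LH. Gapdh was at 52.8 and 76.3 CPM in replicates 1 and 4 of that collection and at 0 in the library of 104912 counts, against 12.5 to 52.9 CPM in the other 19 (edgeR adjusted p = 0.0191). Without LH replicate 1 or without LH replicate 3 no member passed in LH (0.349% and 1.31% of all genes), without LH replicate 4 there were 5 (5.35%), and without HL replicate 1 or HH replicate 1, 3 or 4 there was 1 (2.08% to 2.58%). By number 0 members passed in LH (1.05% of all genes) and 1 in HH (0.803%), and with the replicate number as a block in that fit 1 passed in LH (3.49%) and 3 in HH (2.14%).

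**Figure D3:**
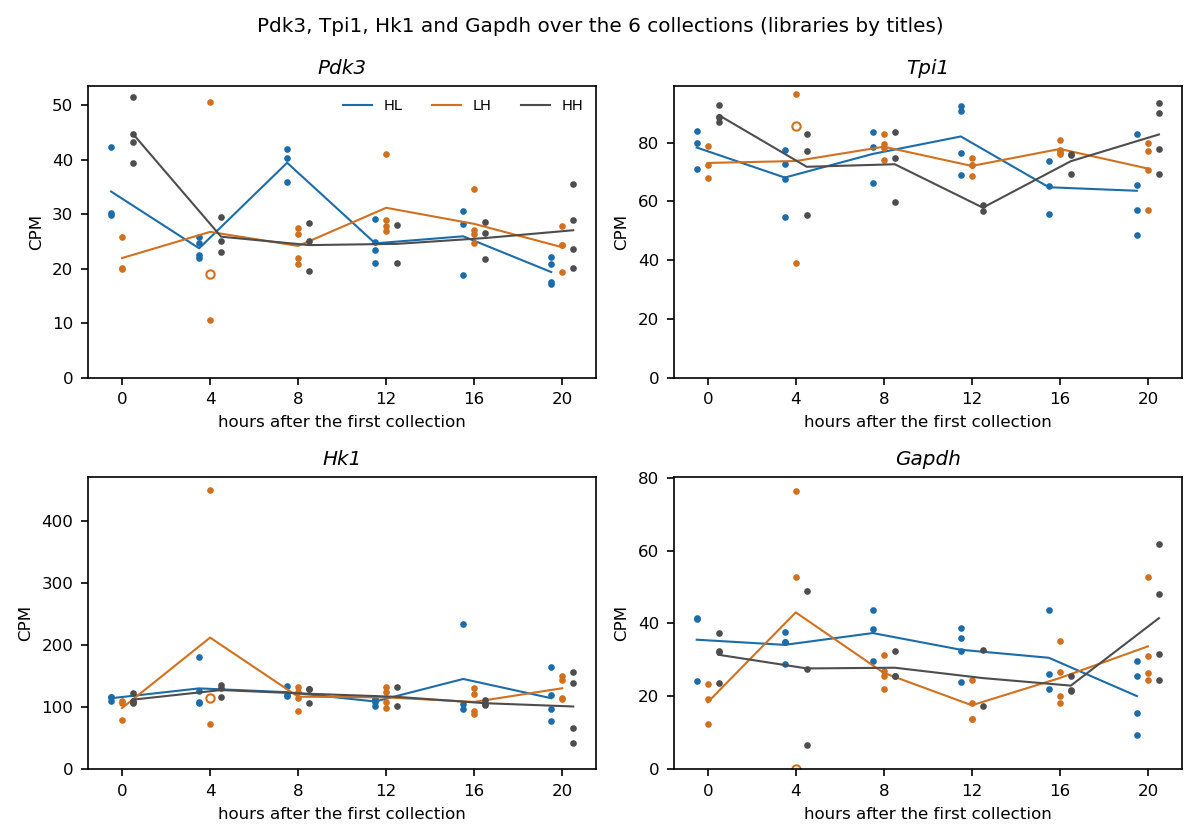
Level in CPM of Pdk3, Tpi1, Hk1 and Gapdh against hours after the first collection. Points are libraries, open points the library of 104912 counts, and lines join the means of HL, LH and HH. In HH the 4 libraries of Pdk3 at 0 h, 39.5 to 51.5 CPM, lie above all later ones.

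For the remaining named members no test over the collections passed as reported, though Eno1 in HL did without a filter (edgeR adjusted p = 0.0424), Slc16a3 in LH without LH replicate 4 (0.0487) and Dlat in HH by number with the replicate block (0.0385). Mean Ldha in HH was between 159 CPM at 4 h and 251.9 CPM at 0 h (edgeR adjusted p = 0.873), and mean Pkm in HL between 1393 and 1698 CPM (edgeR adjusted p = 0.970). Dlat in HH rose from a mean of 33.8 CPM at 0 h to 50.5 CPM at 20 h without passing the threshold (edgeR adjusted p = 0.328). Eno1 in HL, an enolase gene, had means of 14.0 to 26.4 CPM (edgeR adjusted p = 0.486), and Pfkl there means of 36.4 to 53.0 CPM (edgeR adjusted p = 0.593). Slc16a3 in LH had edgeR's adjusted p of 0.0630, again through the second collection, where the library of 104912 counts gave it 38.1 CPM.

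The third comparison asked whether a 24 h rhythm differed between treatments, with a cosine and a sine for each treatment in 1 model. No member passed for HL against LH (0.0677% of all genes), HL against HH (0.015%) or LH against HH (0.0527%) in edgeR, and 1 (7.21% of all genes), 3 (9.91%) and 3 members (9.61%) had an unadjusted p under 0.05. The smallest p were those of Pfkl for HL against LH (edgeR adjusted p = 0.342), Tpi1 for HL against HH (0.286) and Pdk3 for LH against HH (0.293). Next came Pgls (0.694) and Tkt (0.701) for HL against LH, Pdk3 (0.353) and Pfkl (0.459) for HL against HH, and Tpi1 (0.390) and Rpe (0.462) for LH against HH, all as edgeR adjusted p. The simulation found 189 of 200 rhythm differences of a 4-fold range between HL and LH. The fitted peak-to-trough range of the members was far smaller, with a median of 0.265 log2 in HL, 0.319 in LH and 0.354 in HH. The simulation therefore does not cover differences of the size seen in most members.

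Although treatments and collections separated few members, the libraries themselves differed, and several members did so together. After the mean of its treatment and collection was taken from each log2(CPM + 1) value, Aldoa followed Pkm over the 62 libraries with Pearson's r = 0.895 and Spearman's rho = 0.873, Hk1 with r = 0.799 and rho = 0.681 and Ldha with r = 0.797 and rho = 0.821. Pdha1 (r = -0.747, rho = -0.514) and Pdk4 (r = -0.628, rho = -0.597) ran against Aldoa. In the 19 HH libraries, whose names do not differ between the sources, r with Aldoa was 0.922 for Pkm, 0.929 for Ldha, -0.539 for Pdk4 and 0.02 for Pdha1. Of 703 pairs of members, 21 had r above 0.6 and 8 below -0.6, with a median of 0.06, and without the library of 104912 counts these were 25 and 13. These pairs were picked after their values were seen and share libraries and scaling, so they are a description and have no p. For Pgk1, r with Aldoa was -0.003 over 62 libraries, -0.10 without the smallest, 0.152 by number and -0.148 in HH. For Gapdh it was 0.200, 0.121, 0.398 and -0.166 in the same order.

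Of 8 pairs chosen with a permutation test within treatment and collection, 3 passed on ranks and none on Pearson's r after adjustment over the 8. Pdk1 varied with Bnip3, a mitophagy gene and target of hypoxia-inducible factor, with rho = 0.513 (adjusted permutation p = 0.0063) and r = 0.412 (adjusted permutation p = 0.053, and r = 0.383 without the 2 libraries farthest from the median of Pdk1). Pdk4 varied with Txnip, with rho = 0.468 (adjusted permutation p = 0.016) and r = 0.423 (adjusted permutation p = 0.23, and r = 0.418 without 2 libraries). Ldha and Ldhb, whose products form the mixed lactate dehydrogenase tetramers, ran against each other with rho = -0.373 (adjusted permutation p = 0.040) and r = -0.363 (adjusted permutation p = 0.053, and r = -0.302 without 2 libraries). For Ldha with Ldhb the adjusted permutation p of rho was 0.051 with TMM-scaled CPM. By number r was 0.587, 0.567 and -0.423, given with no p because libraries of the same number deviated together there, and Pdk1, Bnip3, Pdk4 and Txnip had lower means in replicate 4 of each treatment. The shuffles treat the libraries of a treatment and collection as exchangeable, which also limits the p-values by titles, since most of the same libraries are in both. The 3 pairs of Pgk1 with Ldha, Aldoa and Tpi1 and that with Bnip3 had r between -0.07 and 0.21 by titles, and G6pdx with Taldo1 had r = 0.209.

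By number, though not by titles, libraries of replicate 4 stood apart from the others. This comparison, replicate 4 against replicates 1 to 3 of the same treatment and collection, was chosen after the data were seen. The labels do not say what a replicate number stands for, and the meaning of number 4 cannot be told from them. By number, edgeR called 7.58% of the 13198 genes tested in HL, 29.4% in LH and 1.74% in HH for replicate 4, and at most 3 genes for each of replicates 1, 2 and 3 in any treatment. By titles it called 0 genes for every replicate and treatment. The genes at an unadjusted p under 0.05 by titles were 676, 732 and 1180 for replicate 4 in HL, LH and HH, and 176 to 2020 for the other replicates, with the most for replicate 3 of HL. By number they were 2903, 5132 and 1793 for replicate 4 and 292 to 1572 for the others, with the most for replicate 2 of HL. In HH the libraries compared are the same in both, and the estimate of the spread is not.

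All values of replicate 4 that follow are by number unless titles are named. Among the members, 8 were higher in replicate 4 of HL by number (3.72% of all genes were) and 1 was lower (3.86%). In LH 12 were higher (15.7%) and 4 lower (13.7%), and in HH 1 was higher (1.32%) and 1 lower (0.424%). Ldha was higher in all 3 treatments. Pfkfb3, Eno1, Pkm, Pgd and Dlat were called higher in both HL and LH. Hk1, Pfkp, Aldoa, Aldoc, Gapdh and Pgam1 were called higher in LH alone, and Rpe and Taldo1 in HL alone, and whether these differ between treatments was not tested. Lower were Pdk1 in HL, Pdk4 in LH and HH, and Pfkm, Pdha1 and Pdk2 in LH. By sign alone, 14 members were above and 7 below in replicate 4 in all 3 treatments. The share of all genes with the same sign in all 3 is not given here, so this does not set the members apart from other genes.

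Ldha in replicate 4 of HL was at 285.2, 231.1, 310.3, 317.1 and 291.2 CPM by number, against 151.8 to 231.97 CPM (median 182) in 14 deep libraries of replicates 1 to 3. In LH it was at 315.4, 248.6, 403.1, 294.2 and 322.6 CPM against 146 to 286 CPM (median 181), and in HH at 299.4, 208.8, 213.4, 240.4 and 289.1 CPM against 113 to 247.7 CPM (median 185). The groups overlap in each treatment, but replicate 4 was the highest library of its treatment and collection in 15 of 15 cases. The share of all genes with such ranks, or with no overlap between the groups, is not given here. The ranks and overlaps of Ldha and of the members below therefore do not set them apart from other genes. The log2 differences were 0.64 (SE 0.10, edgeR adjusted p = 2.8e-05), 0.91 (SE 0.10, edgeR adjusted p = 3.3e-10) and 0.45 (SE 0.11, edgeR adjusted p = 0.0133).

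Aldoa in replicate 4 of LH reached 597, 578, 773, 785 and 1257 CPM by number, all above the 410 to 556 CPM of replicates 1 to 3. In HL it had 542, 502, 534, 648 and 664 CPM against 447 to 514 CPM, and in HH 637, 566, 557, 605 and 642 CPM against 317 to 582 CPM. It too was the highest of its treatment and collection in 15 of 15 cases. The log2 differences were 0.27 in HL (SE 0.11, edgeR adjusted p = 0.127), 0.96 in LH (SE 0.11, edgeR adjusted p = 4.3e-10) and 0.39 in HH (SE 0.11, edgeR adjusted p = 0.0579). Pkm was the highest in 14 of 15 cases, with log2 differences of 0.44, 0.80 and 0.38.

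Pdk4 took the opposite course. In HH it was at 2.599, 2.09, 2.06, 2.46 and 4.70 CPM in replicate 4 and at 5.29 to 11.5 CPM in the other 14 libraries, with no overlap. In LH it was at 5.32, 6.20, 0.315, 0.919 and 2.31 CPM against 3.39 to 15.0 CPM, and in HL at 6.74, 4.48, 4.62, 2.42 and 3.68 CPM against 3.10 to 14.1 CPM, where the groups overlap. It was the lowest of its treatment and collection in 12 of 15 cases and the highest in none. The log2 differences were -0.59 in HL (SE 0.29, edgeR adjusted p = 0.207), -1.34 in LH (SE 0.31, edgeR adjusted p = 0.00066) and -1.65 in HH (SE 0.30, edgeR adjusted p = 0.00073). In HH by titles the value was the same, -1.65, with a larger SE of 0.40 and an edgeR adjusted p of 0.238. Pdk1 fell to 0.460 to 3.199 CPM in HL against 2.05 to 9.71 CPM (log2 difference -1.87, SE 0.39, edgeR adjusted p = 0.00088).

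**Figure D4:**
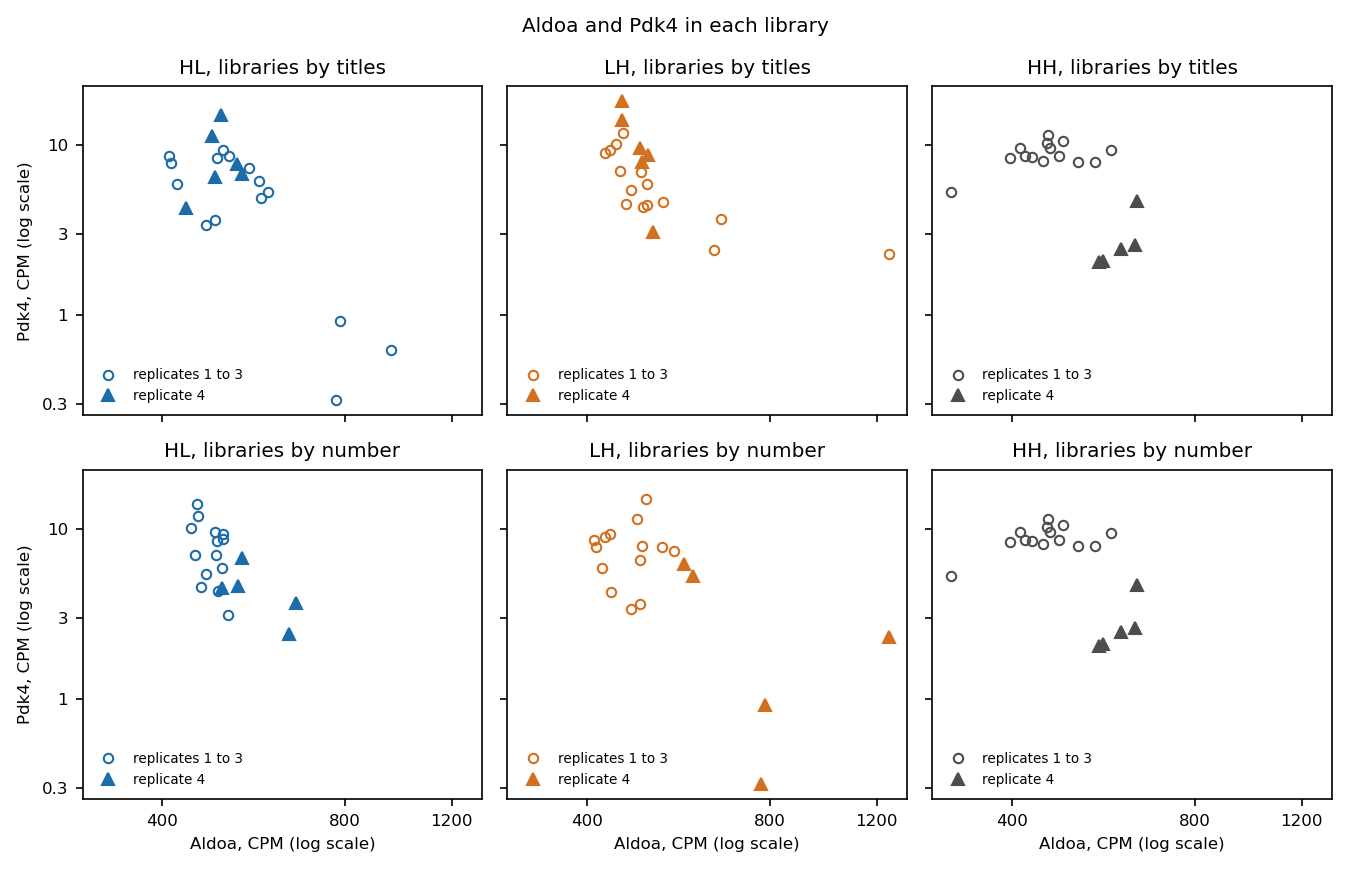
Pdk4 against Aldoa, both in CPM on log axes, in each of the deep libraries of HL, LH and HH, by titles (top) and by number (bottom). Triangles are replicate 4 and circles replicates 1 to 3. In HH the 5 triangles lie at 2.06 to 4.70 CPM of Pdk4, below all circles.

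**Figure D5:**
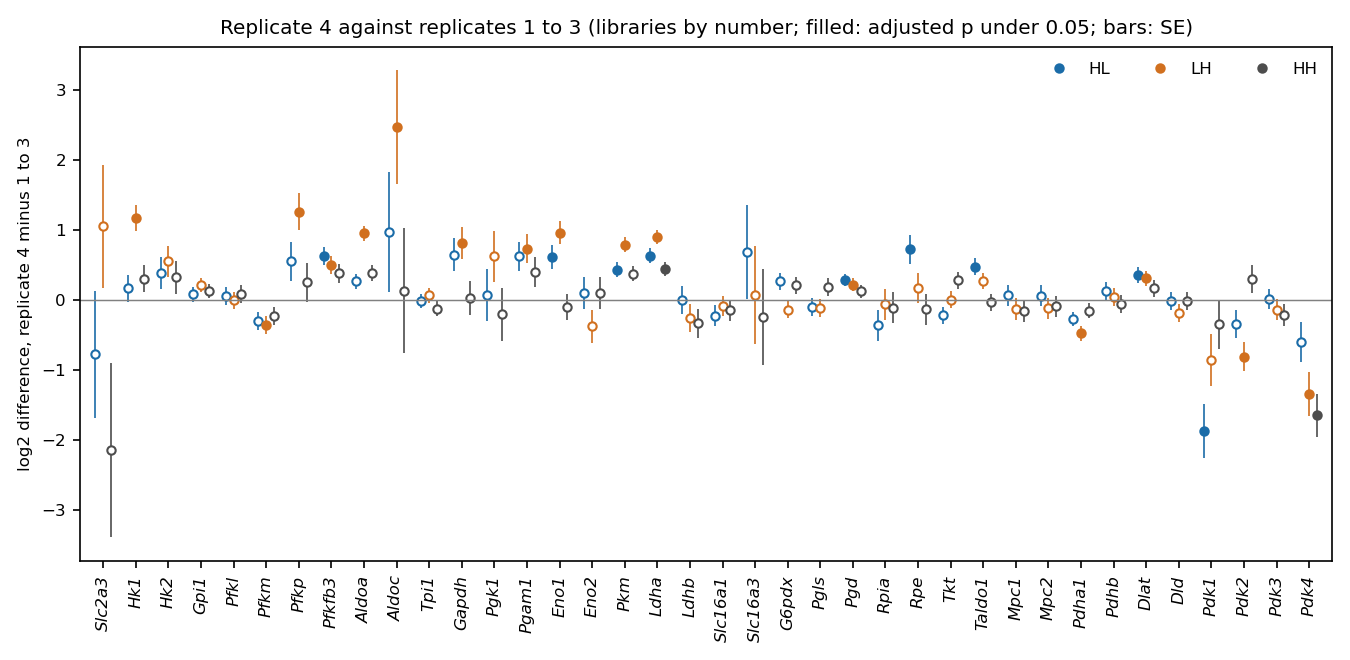
Log2 difference of replicate 4 from replicates 1 to 3 of the same treatment and collection for each member, libraries by number. Bars are SE and filled points have an edgeR adjusted p under 0.05, of which there are 9 in HL, 16 in LH and 2 in HH.

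Single libraries weigh on these counts. Without replicate 4 of LH at the sixth collection, the library with Aldoa at 1257 CPM and Hk1 at 450.0 CPM, 10 members were called in LH in place of 16, and 15.2% of all genes in place of 29.4%. Without HL replicate 2, 3 were called in HL in place of 9, and 3.07% of all genes in place of 7.58%. In HH 1 member was called without replicate 4 of the fourth or of the sixth collection or without replicate 1 (0.213% to 0.797% of all genes), and 4 were called without replicate 4 of LH at the first, the second or the sixth collection (2.02% to 2.39%).

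Other genes moved with replicate 4 by number, where by titles none was called. Of the 30 other genes of the same pathways, 3 were higher and none lower in HL, 5 were higher and 5 lower in LH, and 1 was higher and none lower in HH. For these and the lists that follow, 3.72% of all genes were higher and 3.86% lower in HL. In LH the shares of all genes were 15.7% and 13.7%, and in HH 1.32% and 0.424%. The counts of the 30 genes in LH thus lay near the shares of all genes. Of the 10 fibroblast markers, 4 were lower in HL, 7 in LH and 2 in HH, and Pdgfrb was higher in HL and LH. Their summed level was 17335 to 32036 CPM in replicate 4 of HL against 23774 to 36072 CPM in replicates 1 to 3, 13863 to 32155 against 18794 to 38620 CPM in LH, and 22693 to 37379 against 15344 to 35704 CPM in HH. Kdr, which made up nearly all of the summed endothelium markers, was lower in HL and LH. That sum was 128 to 147 CPM against 151 to 247.3 CPM in HL, 22.8 to 130 against 152 to 231.1 CPM in LH, and 145 to 185 against 157 to 270 CPM in HH. Txnip was lower in LH. Of the hypoxia targets, Vegfa, P4ha1, Kdm3a, Mxi1 and Ddit4 were higher and Bnip3 and Adm lower in LH, Ddit4 was higher and Ndrg1 lower in HL, and none passed in HH. The part of these in the members' differences was not tested.

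Sequences upstream of Ldha, Aldoa and Pkm, which move together in the libraries, and of Pdk4, which runs against them, are shown with the short motifs that a letter search found there. ACGTG and GCGTG, on either strand, are the core letters to which hypoxia-inducible factors bind, and CACGTG is the E-box of clock and MYC proteins and holds an ACGTG on each strand. Each line gives the 250 bases before a RefSeq start on GRCm38.p6, 5′ to 3′ on the strand of the gene, with ACGTG or GCGTG of either strand in capitals.
Ldha, chr7:46845554-46845803, plus strand: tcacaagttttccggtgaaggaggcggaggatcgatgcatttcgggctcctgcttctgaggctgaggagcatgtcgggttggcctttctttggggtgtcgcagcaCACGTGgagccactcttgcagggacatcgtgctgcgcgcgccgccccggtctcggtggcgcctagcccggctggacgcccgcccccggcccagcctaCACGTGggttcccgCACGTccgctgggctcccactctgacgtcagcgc
Aldoa, chr7:126799179-126799428, minus strand: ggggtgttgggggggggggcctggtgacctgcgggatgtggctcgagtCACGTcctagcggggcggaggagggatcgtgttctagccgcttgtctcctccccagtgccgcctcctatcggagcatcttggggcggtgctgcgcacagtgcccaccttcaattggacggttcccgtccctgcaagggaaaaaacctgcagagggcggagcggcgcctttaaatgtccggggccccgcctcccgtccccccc
Pkm, chr9:59656977-59657226, plus strand: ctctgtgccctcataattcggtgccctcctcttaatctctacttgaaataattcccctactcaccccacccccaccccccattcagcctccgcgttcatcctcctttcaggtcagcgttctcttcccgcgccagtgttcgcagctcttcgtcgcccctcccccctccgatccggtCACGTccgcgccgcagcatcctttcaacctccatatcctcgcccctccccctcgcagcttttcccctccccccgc
Pdk4, chr6:5496279-5496528, minus strand: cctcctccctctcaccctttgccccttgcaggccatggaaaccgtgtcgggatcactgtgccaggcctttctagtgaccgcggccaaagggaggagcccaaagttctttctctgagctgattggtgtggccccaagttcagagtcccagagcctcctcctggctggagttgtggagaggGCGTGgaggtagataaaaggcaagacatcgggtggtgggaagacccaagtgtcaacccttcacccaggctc

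Ldha carried CACGTG at 2 places in these bases and Aldoa, Pkm and Pdk4 at none. Each start shown holds such letters. Of the starts not shown, 1 of Aldoa and 1 of Pkm had neither ACGTG nor GCGTG in the 250 bases, and that of Ldha had GCGTG but no ACGTG. The remaining start of Aldoa overlaps the one shown and had 1 ACGTG. Over promoters of 250 bases before to 50 bases after the start, ACGTG occurred in at least 1 promoter of 17 of the 37 members with a RefSeq promoter (45.9%) and of 21.8% of 27025 genes. GCGTG occurred in 25 members (67.6%) against 35.2% of genes, CACGTG in 5 members (13.5%) against 8.09%, and either ACGTG or GCGTG in 31 (83.8%) against 46.7%. These are letter matches in promoters that differ in base composition and were not tested, and no promoter of Slc2a3 was in the table.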

How the data were processed

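Total RNA was sequenced by 3′DGE, and the authors deposited whole counts of uniquely aligned reads per gene, not normalized, as 121 sets. The submitters' processing notes name bcl2fastq, STAR 2.6.0a, HTSeq 0.9.1 and mm10. The annotation release is not given in the sources used here. Reads on no feature were 18.4% to 29.1% of a run and were left out. The 2 runs of 59 libraries were summed (3 had 1 run), CPM was computed from library totals, and a gene entered the tests where 3 or more libraries had it at 1 CPM or above.

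Treatments and time were compared with edgeR 4.0.16 (quasi-likelihood, TMM, Benjamini-Hochberg over all genes at 0.05, R 4.3.3), with all libraries fitted jointly. Collection was a term in the fit of levels, the fit of time had 18 means and that of rhythms a 24 h cosine and sine. JTK_CYCLE was rewritten with its exact null distribution. The replicate contrast and the search for like 3′ ends in GENCODE M21 transcripts (blastn 2.17.0+, no genome being given) were added after the data were seen. Alternatives were the library numbers, DESeq2 1.42.0, RLE scaling, no filter, single runs, a replicate block and leaving out replicates. Permutation tests drew 100000 shuffles, two-sided.

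On simulated counts edgeR found 200 of 200 level changes of 2-fold (LH against HL, 5 false calls among 12492 genes) and 143 of 200 changes over time in HH with an SD of 0.7 log2, and JTK_CYCLE 196 of 200 rhythms of a 4-fold range in HL (73 false calls at P under 0.01 among 12492 genes). All changes were simulated in genes above 5 CPM over the pooled libraries, so members below that level are not covered. Intervals cover the spread between libraries.

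Members, lists and tests were chosen with earlier results of these data known. Values are given for Hk2, Pfkfb3, Gapdh, Pgk1, Pkm, Ldha, Slc16a3, G6pdx, Pdk1 and Pdk4. They are also given for every member past a threshold of levels, time or rhythm as reported, and for the 3 smallest p of each of these comparisons. In the replicate contrast they are given for Ldha, Aldoa, Pkm, Pdk4 and Pdk1, and the other members called there are only named. Aldoa and others beyond this were named after their values were seen.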

Additional observations from a re-analysis of the deposited data

Results flagged for a closer look

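In groups of 4 libraries by titles, 15 members in 9 groups were searched for a library far from its 3 neighbours, and 8 of 135 were found, where chance gives about 1 in 20. Ldha was at 310 CPM in replicate 2 of LH at the fourth collection (the others 184 to 196 CPM) and at 317 CPM in replicate 2 of LH at the fifth collection (170 to 180 CPM). Aldoa was at 664 CPM in replicate 1 of LH at the sixth collection (447 to 459 CPM). Slc16a3 was at 1.13 CPM in replicate 2 of LH at the fifth collection (0.432 to 0.517 CPM) and at 1.38 CPM in replicate 1 of LH at the sixth collection (0.487 to 0.547 CPM). Pdk3 was at 41.0 CPM in replicate 2 of LH at the fourth collection (26.9 to 28.9 CPM). By number these 3 libraries are replicate 4 of HL. Pgk1 was at 10.2 CPM in replicate 4 of LH at the sixth collection (2.72 to 3.91 CPM) and at 2.71 CPM in replicate 4 of HH at the sixth collection (3.92 to 4.13 CPM).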

How the results depend on the processing

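Over 80 results and 1750 alternatives, 1533 values kept their direction and side of the threshold or stayed within 1.5 times, 24 lost and 32 gained a call, 145 moved and 16 reversed, and the causes were not tested. No member was called in levels or in rhythm differences under any alternative. Members called over time were 1 in HL without a filter and 1 with the second run alone. In LH they were 0 by number, 5 without a filter, 1 with the first run, 4 with the second run, 1 by number with a replicate block and 0 to 5 with a replicate left out. In HH they were 1 by number, 1 in DESeq2, 1 with the second run, 3 by number with a replicate block and 0 to 1 with a replicate left out. The share of all genes called in the same setting is given above for some of these alternatives. It is not given for the others, nor for those of JTK_CYCLE that follow, and the member counts there may move with the counts over all genes. JTK_CYCLE called 1 member in HL with either run alone, 1 in LH with TMM-scaled CPM and 1 with the second run, 0 to 1 in HL, LH and HH with a replicate left out, and in HH 0 after adjustment over genes, while a cosinor called 2. Counts over all genes ranged from 6 to 638 over time in HL (40 reported), 46 to 1254 in LH (390), 4 to 498 in HH (39), 0 to 240, 0 to 434 and 3 to 382 in JTK_CYCLE (0.82%, 1.51% and 1.99% of genes reported), and 0 to 83, 0 to 51 and 0 to 78 for rhythm differences (9, 2 and 7). In levels they were 0 to 154, 0 to 160 and 0 to 121 (0 in each).

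For replicate 4, by titles 0 members were called in HL, LH and HH. In HL 5 were called with the first run and 3 to 11 with libraries left out, in LH 10 to 20 with libraries left out, and in HH 4 in DESeq2, 4 without a filter, 5 with the first run and 1 to 4 with libraries left out. Over all genes the calls with libraries left out were 403 to 1209, 2006 to 4327 and 28 to 381. Over all alternatives they were 0 to 1289, 0 to 4327 and 0 to 470 (1001, 3874 and 230 reported). The calls over all genes in DESeq2, without a filter and with the first run are not given singly, and the member counts there may move with them. By titles the log2 differences reversed to -0.20 for Ldha, -0.22 for Aldoa, -0.13 for Pkm and 0.72 for Pdk4 in HL, and to -0.29 for Ldha, -0.20 for Aldoa, -0.28 for Pkm, 0.58 for Pdk4 and 0.21 for Pdk1 in LH. For LH against HL, Dlat reversed to -0.078 by number and -0.073 by number with the replicate block, Pgls to 0.10 and 0.11 and Rpe to -0.30 and -0.27. Aldoc for LH against HH reversed to -0.13 by number with the replicate block.

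Replicate numbers were not used as pairs. Deviations of libraries of the same number correlated between treatments by -0.51 to 0.30 by titles, above 0.1 in 3 of 12 cases, and by 0.07 to 0.71 by number, in 11 of 12. With a replicate block by titles 0 members were called in levels. The Pkm difference of LH against HH by number had an edgeR adjusted p of 0.278, and 0.0721 with the block.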

Other observations

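The kinase and phosphatase side of pyruvate dehydrogenase was present in full. Pdp1 and Pdp2, the phosphatases that switch the complex back on, had medians of 80.4 and 42.5 CPM, above each of the 4 kinases, and Pdpr, their regulator, 24.1 CPM. Of genes that feed pyruvate elsewhere, Me1 had 60.8 CPM, Pck2 52.6 CPM and Pcx 13.6 CPM. Several genes of tissue-restricted forms (Hk3, Pklr, Fbp1, Fbp2, Ldhc and Slc2a4) had a median of 0 CPM and were not tested.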
